A study of Mus musculus with 6 samples.

Results

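The transcripts described here encode the core of the canonical Wnt pathway, measured by RNA-sequencing of single mouse morulae that lack Rbpj. The genes were picked by name, without a threshold on their values but with earlier results of these data known, and are Ctnnb1, Wnt7b, Lrp5, Lrp6, Apc, Axin1, Gsk3a, Gsk3b, Csnk1a1 and Dvl1. All 10 were present among the 12125 genes of the deposited table, and all 10 had values above 1 in at least 3 embryos, the limit for testing. RNA came from 6 individual E2.5 embryos on an outbred background, from an Rbpj null line kept in the heterozygous state. The Rbpj-/- group held embryos 6 and 7 of litter 808 and embryo 4 of litter 810, and the control group held embryos 1 (Rbpj+/-), 3 and 4 (both Rbpj+/+) of litter 808. The labels give no treatment. Litter 810 contributed a single mutant and no control, so that its genotype and its litter cannot be told apart. Values are normalised counts (TMM-scaled CPM), and the study asked which transcripts depend on RBPJ, through which Notch receptors act on their target genes.

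In the canonical Wnt pathway, cytoplasmic β-catenin, the product of Ctnnb1, is held at a low level by a destruction complex. AXIN1 and APC act as scaffolds in this complex, CK1α (Csnk1a1) and the kinases GSK3α and GSK3β phosphorylate β-catenin, and the phosphorylated protein is ubiquitinated and degraded. When a Wnt ligand such as WNT7B binds a Frizzled receptor and the co-receptors LRP5 or LRP6, Dishevelled (DVL1) recruits AXIN1 to the membrane, β-catenin accumulates, and it activates transcription with TCF/LEF factors. β-catenin also links E-cadherin to the actin cytoskeleton, which in the morula is the basis of compaction.

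The part of Ctnnb1 that the kinases act on lies in exon 3 of its longest annotated transcript, and its codons are shown because they tie 4 of the genes described here to each other. The stretch covers 42 bases at chr9:120950602-120950643 (GRCm38, plus strand). Capitals mark the codons of the serines and threonine that are phosphorylated, of which the last is primed by CK1α and the others follow through GSK3.
Ctnnb1 degron codons: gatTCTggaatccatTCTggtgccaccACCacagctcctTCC

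Embryos differed in depth and the difference ran with genotype. The recovered reads per embryo were 2962425 and 4330126 in the Rbpj-/- littermates, 10064016 in the Rbpj-/- embryo of litter 810, and 12690030 to 14585313 in the controls. Rbpj itself was 10.5, 24.3 and 1.32 in the mutants (in the order given above), 37.0 in the Rbpj+/- embryo and 111 and 96.9 in the Rbpj+/+ embryos. This is no independent check, because the authors assigned genotypes by the Rbpj and Neo transcripts, and Rbpj shares 1441 aligned bases at 99.7% identity with Rbpj-ps3. Of a list of 12 morula markers 10 were analysed, and their summed value was 4817 to 6722 in mutants and 4150 to 4513 in controls. Dppa3 carried most of it, at 5435, 5456 and 2864 in the mutants and 2223 to 2574 in controls, and the other 9 summed to 982, 1265 and 1954 in the mutants and 1801 to 2290 in controls, the Rbpj-/- littermates being lowest. Cdh1, Sall4, Tfap2c, Cdx2, Krt8 and Tead4 were below all controls in both littermates, where 27.0% of all genes tested were. Nanog went the other way, at 62.4, 31.5 and 64.9 in the mutants and 23.9 to 26.9 in controls. Pou5f1 was at 375 and 613 in the Rbpj-/- littermates and 376 to 591 in controls. Krt18 was at 121 and 99.8 in these littermates and 70.0 to 127 in controls. None of 9 cumulus markers was analysed. Oviduct markers summed to 32.9 to 230 in mutants and 53.2 to 169 in controls, and blood markers to 41.5 to 7305 and 5.39 to 5447, so neither list separated the groups. Both sums were highest in the mutant of litter 810. Blood markers were also high in wildtype embryo 4 (5447), and were at 5.39 to 1110 in the other embryos. Whole embryos were lysed, so fewer cells of a type and less RNA per cell cannot be told apart. Single embryos are the replicates.

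Transcripts of β-catenin, the ligand Wnt7b and 4 members of the destruction complex were 2.26 to 4.97 times lower in Rbpj-/- morulae than in their control littermates. These folds are on the scale of value + 1. Between the 2 mutants and 3 controls of litter 808, Ctnnb1, Wnt7b, Apc, Axin1, Gsk3a and Gsk3b fell, 6 of 10 genes, and none rose, where 11.3% of all genes tested fell and 5.85% rose (limma, Benjamini-Hochberg adjusted p under 0.05). The 10 genes had a median log2 fold change of -1.86, and the 12099 genes tested one of -0.16. Csnk1a1 and Lrp5 showed no detectable difference. Over all 6 embryos, with the mutant of litter 810 included and litter left out of the fit, none of the 10 genes passed the test.

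**Figure D1:**
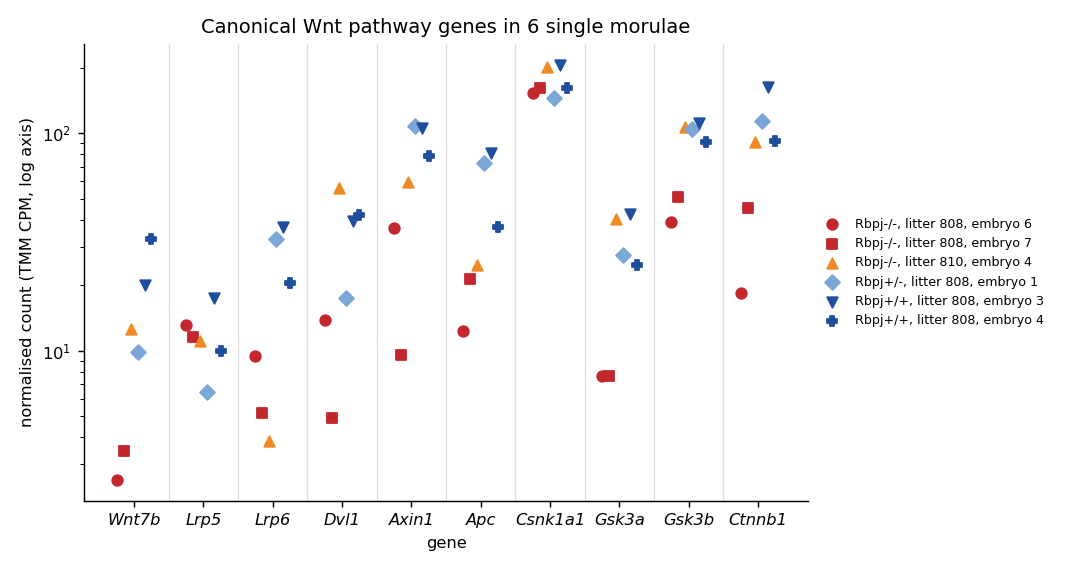
Normalised count (TMM-scaled CPM, log axis) of each Wnt pathway gene in each of the 6 morulae, 1 point per embryo, with shape and colour giving genotype and litter. For 8 of the 10 genes both Rbpj-/- embryos of litter 808 lie below all controls, beside 27.0% of all genes tested. The Rbpj-/- embryo of litter 810 does so for 4 of the 10, beside 29.6% of all genes.

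Wnt7b (chr15:85535437-85582473, GRCm38, minus strand), the only ligand of the set, was low in the Rbpj-/- littermates. Its normalised count was 2.54 and 3.44 in these embryos, from 7 and 14 reads, and 12.6 in the mutant of litter 810. The controls had 9.84 (heterozygote), 20.1 and 32.5. The mutant of litter 810 lay above the heterozygote, so the groups overlapped. Between littermates the log2 fold change was -2.31 (SE 0.68, n = 2 and 3, limma adjusted p = 0.0456), and over all 6 embryos -1.72 (SE 0.74, adjusted p = 0.289). The littermate call was close to the threshold and was kept in 6 of 18 alternatives, with adjusted p from 0.00617 to 0.148. The antisense gene AU022754 overlaps 6.62% of its exon bases.

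Neither co-receptor passed the main limma tests, and the groups overlapped for Lrp5 but not for Lrp6. Lrp6 (chr6:134446476-134566965, minus strand) had 9.44, 5.16 and 3.86 in the mutants against 32.6 (heterozygote), 37.1 and 20.4 in the controls, or 21 to 41 reads against 305 to 550. Here the mutant of litter 810 had the lowest value of all 6 embryos, and the groups did not overlap. Across all 6 embryos the log2 fold change of -2.15 (SE 0.58) had a limma adjusted p of 0.176, and between littermates that of -1.91 (SE 0.58) had 0.0513, just outside the threshold. DESeq2 on the recovered reads, an alternative, called Lrp6 over all 6 embryos (adjusted p = 0.0173), and the limma adjusted p ranged up to 0.530 in other settings. Lrp5 (chr19:3584828-3686564, minus strand) stood at 13.1, 11.6 and 11.1 in the mutants, inside the control range of 6.46 to 17.5. The difference between littermates was 0.21 on the log2 scale, with a 95% interval of -1.20 to 1.63, which leaves room for more than a 2-fold change either way. The difference between the log2 changes of Lrp5 and Lrp6 was not tested.

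Dvl1 (chr4:155847402-155859303, plus strand), which carries the signal from the receptors to AXIN1, split the mutants by litter. The Rbpj-/- littermates had 13.8 and 4.92, below all controls (17.5, 39.3 and 42.2, the heterozygote first), whereas the mutant of litter 810 had 55.8, above all of them. Between littermates Dvl1 did not pass the test (log2 fold change -1.77, SE 0.59, limma adjusted p = 0.0671).

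Among the scaffolds of the destruction complex, both Apc and Axin1 were lower in every mutant than in every control. The normalised count of Apc was 12.3, 21.4 and 24.8 in the mutants, against 72.9 (heterozygote), 81.3 and 37.2 in the controls. Axin1 (chr17:26138688-26195811, plus strand), the scaffold that limits the amount of complex, was at 36.7, 9.59 and 59.7 against 108, 106 and 78.8 in the same order. The embryo with the lowest Axin1 was thus not the one with the lowest Apc, and the mutant of litter 810 came nearest to the controls for both genes. Between littermates Apc fell (log2 fold change -1.83, SE 0.47, limma adjusted p = 0.0273), and so did Axin1 (-2.29, SE 0.50, adjusted p = 0.0160). Across all 6 embryos the values were -1.64 (SE 0.47, adjusted p = 0.186) for Apc and -1.75 (SE 0.57, adjusted p = 0.202) for Axin1. DESeq2 called Apc over all 6 embryos too, with adjusted p = 0.0283.

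The GSK3 kinases were low in the Rbpj-/- littermates and not in the mutant of litter 810. Gsk3a (chr7:25228258-25237851, minus strand) had 7.62 in both of these embryos and 27.7 (heterozygote), 42.5 and 24.8 in the controls, and Gsk3b (chr16:38089001-38246084, plus strand) had 39.2 and 50.6 against 105, 112 and 91.2. In the mutant of litter 810 both genes were inside the control range, at 40.5 for Gsk3a and 107 for Gsk3b. Between littermates Gsk3a fell with a log2 fold change of -1.88 (SE 0.48, limma adjusted p = 0.0270) and Gsk3b with -1.18 (SE 0.28, adjusted p = 0.0222). In the comparison of all 6 embryos neither passed, at -1.13 (SE 0.67, adjusted p = 0.407) and -0.77 (SE 0.40, adjusted p = 0.353). An antisense transcript, 9130221H12Rik, covers 28.3% of the exon bases of Gsk3a, and without strand its reads cannot be told from those of Gsk3a.

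Csnk1a1, the kinase that starts the phosphorylation of β-catenin, was at a like level in every embryo. Its normalised count was 154, 161 and 201 in the mutants and 146, 207 and 161 in the controls. The 95% interval of the log2 difference between littermates, -0.65 to 0.44 around -0.10, excludes a change as large as that of Ctnnb1.

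Ctnnb1 (chr9:120929216-120960507, plus strand), the effector of the pathway, had a normalised count of 18.5 and 45.5 in the Rbpj-/- littermates and 91.3 in the Rbpj-/- embryo of litter 810. The controls had 114 (heterozygote), 164 and 92.5, so that the mutant of litter 810 lay below the lowest control by a narrow margin and the littermates far below. Between littermates Ctnnb1 fell with a log2 fold change of -2.01 (SE 0.42, limma adjusted p = 0.0133), and over all 6 embryos it was at -1.47 (SE 0.52, adjusted p = 0.221). Exons of Ulk4 on the other strand share 759 bases, or 14.6%, with those of Ctnnb1. Ulk4 was at 5.90 to 14.9 in mutants and 3.84 to 9.07 in controls, and did not pass the test between littermates (log2 fold change 0.45, limma adjusted p = 0.702).

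**Figure D2:**
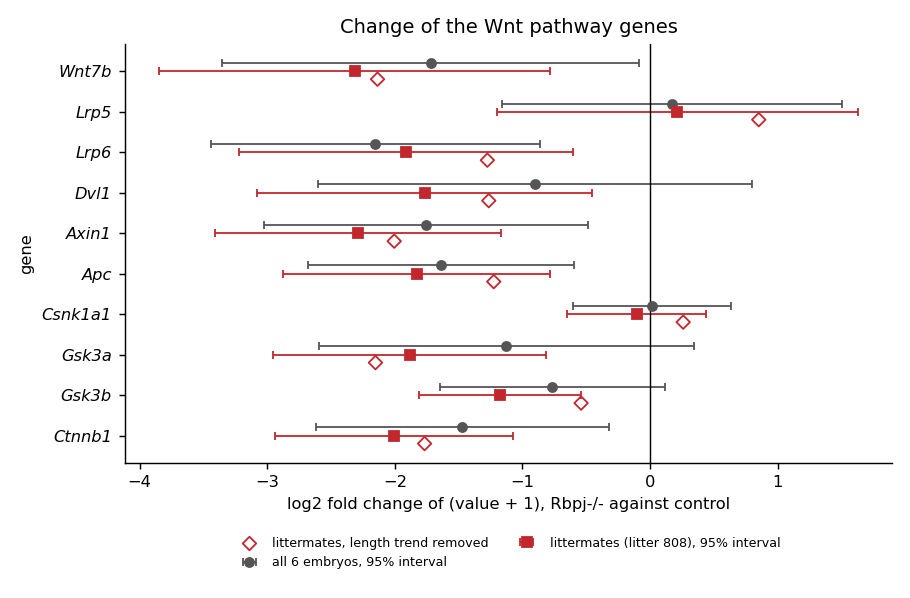
Log2 fold change of (value + 1) in Rbpj-/- against control morulae for each Wnt pathway gene, over all 6 embryos (circles) and between littermates of litter 808 (squares), with 95% intervals from limma, and between littermates once a trend with transcript length was removed (open diamonds, no interval drawn). The littermate values of 9 genes are below 0, and the intervals of Lrp5 and Csnk1a1 span 0.

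Taken embryo by embryo, the 2 Rbpj-/- littermates had the same number of genes below all controls, and the third mutant had fewer. Values of single genes still differed between these littermates, as for Axin1 (36.7 and 9.59) and Ctnnb1 (18.5 and 45.5). Each littermate was below all controls for 8 of the 10 genes, all but Lrp5 and Csnk1a1, where 39.8% and 37.2% of all genes tested were and 27.0% were so in both. In the mutant of litter 810 this held for 4 genes, Ctnnb1, Lrp6, Apc and Axin1, against 29.6% of all genes. The median log2 difference of the 10 genes from the control mean was -1.45 and -1.67 in the littermates and -0.17 in the mutant of litter 810, where all genes gave -0.14, -0.12 and 0.02. Single controls departed from the mean of the other controls by -1.29 to 1.15. The heterozygote was the lowest control for 4 of the 10 genes, the highest for 1 and between the wildtype embryos for 5.

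In all 3 mutants together, 4 of the 10 genes were below every control, where 12.8% of all genes tested were, and none was above, where 8.91% were. For Ctnnb1, Lrp6, Apc and Axin1 the exact two-sided permutation test gave p = 0.1, the smallest that 3 against 3 embryos allow. Over all 6 embryos limma called 0 of the 10 genes and 0 of all 12099 genes (0.0%). At an unadjusted p under 0.05 it had 5 of the 10 lower, Wnt7b joining these 4, and 0 higher, beside 11.4% and 5.03% of all genes. DESeq2, which gave an adjusted p for 8 of the 10 over all 6 embryos (not for Wnt7b and Lrp5), called 2 lower, Lrp6 and Apc, and 0 higher (3.48% of the genes it could test were lower and 2.1% higher), and edgeR called 0.

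The littermate count rested on few embryos. Without the heterozygote, or without wildtype embryo 3, none of the 10 genes passed. Without wildtype embryo 4 the count was 2, and without Rbpj-/- embryo 6 it was 1. It was 5 without Rbpj-/- embryo 7 and 7 without the mutant of litter 810. Over all genes the 2074 calls of the main fit became 590 without the heterozygote, 481 without wildtype embryo 3 and 665 without wildtype embryo 4. On the recovered reads edgeR called 5 of the 10 lower between littermates (7.88% of all genes lower, 4.75% higher). DESeq2 called 8 lower (15.1% lower, 11.1% higher), and neither called any of the 10 higher. The 2 mutants were also the shallowest libraries. With all reads thinned to the depth of the shallowest embryo, 5 of the 6 genes still passed, and Wnt7b had a limma adjusted p of 0.0507. Of all genes 1996 passed on thinned reads, against 2074 in the main fit.

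Transcript length ran with the change between littermates across the whole table. With the genes split into 5 groups of equal size by their longest annotated transcript, the median log2 fold change was 0.64 in the shortest, then 0.16, -0.33 and -0.63, and -0.84 in the longest, and the share of genes that fell went from 0.917% in the shortest to 22.6% in the longest group. Apc, Gsk3b, Lrp5 and Lrp6 belong to the longest group, with 12811, 8303, 8893 and 9368 bases, so the share to set their 2 calls against is 22.6%. Gsk3a, at 2260 bases, belongs to the second shortest, in which 2.46% of genes fell. When the trend with length was removed from each embryo, Ctnnb1 (log2 fold change -1.77, limma adjusted p = 0.0228), Axin1 (-2.01, 0.0405) and Gsk3a (-2.15, 0.0275) passed. These are 3 of the 10 genes, beside 6.79% of all genes lower and 3.02% higher in the same fit. Wnt7b (-2.14, adjusted p = 0.0818), Apc (-1.23, 0.107) and Gsk3b (-0.54, 0.232) did not pass, with a fold change close to the uncorrected one for Wnt7b and a smaller one for Apc and Gsk3b. With the mean difference of each embryo removed as well, a setting added after the values were seen, 2 genes passed, Ctnnb1 (adjusted p = 0.0446) and Gsk3a (0.0441), beside 3.93% of all genes lower and 5.42% higher.

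**Figure D3:**
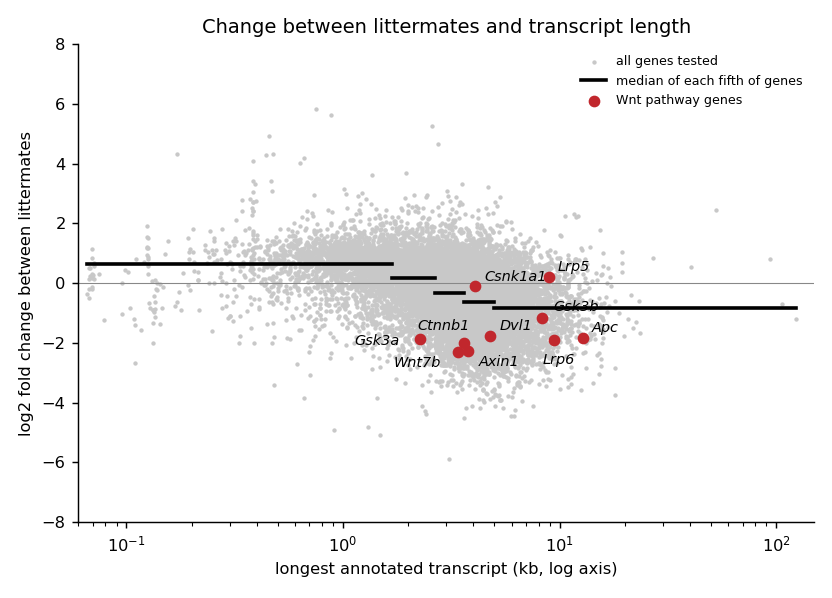
Log2 fold change between littermates of litter 808 (Rbpj-/- against control) against the length of the longest annotated transcript in kb (log axis) for all genes tested that have an annotated transcript (grey), with the medians of 5 groups of genes by length (black bars) and the 10 Wnt pathway genes (red). The medians go from 0.64 in the shortest to -0.84 in the longest group, and the 4 longest members lie between 0.21 and -1.91.

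Per kilobase of the longest transcript, the control morulae held more RNA for Csnk1a1 and Ctnnb1 than for the co-receptors. The level was 41.9 ± 7.75 (SD, n = 3) CPM per kb for Csnk1a1, 34.1 ± 10.1 for Ctnnb1 and 25.8 ± 4.30 for Axin1, whose ranges overlapped from one to the next. Gsk3a (14.0 ± 4.22) and Gsk3b (12.3 ± 1.25) came below all values of Axin1 and overlapped each other. Dvl1 (6.92 ± 2.83), Wnt7b (6.12 ± 3.34), Apc (4.98 ± 1.83) and Lrp6 (3.21 ± 0.919) followed with overlapping ranges, all controls of Gsk3b being above those of Dvl1. Lrp5 was lowest, at 1.27 ± 0.633, below Lrp6 in every control. The order depends on the length used. Per kilobase of the median annotated transcript the control mean was highest for Ctnnb1 (155), then Csnk1a1 (75.5), Gsk3b (58.6), Axin1 (34.4), Apc (24.2), Lrp6 (16.2), Gsk3a (14.1), Dvl1 (10.9), Wnt7b (6.65) and Lrp5 (2.82).

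RefSeq promoters were at hand for 4 of the genes, Ctnnb1 (2 windows), Gsk3a, Gsk3b and Dvl1, and were searched because the missing factor binds DNA. The core of the RBPJ motif, TGGGAA, was looked for on both strands in 300-base windows, from 250 bases before to 50 after each start. It occurred in the windows of Gsk3a, at position -26, and Dvl1, at position -171, and 25.6% of all RefSeq promoter windows hold it. No match was found in the windows of Ctnnb1 and Gsk3b. In Gsk3a it lies on the other strand and reads TTCCCA. The 250 bases before the start are shown for the windows with a match, with the motif in capitals (GRCm38.p6), Gsk3a from chr7:25237852-25238101 on the minus strand and Dvl1 from chr4:155847152-155847401 on the plus strand.
Gsk3a promoter: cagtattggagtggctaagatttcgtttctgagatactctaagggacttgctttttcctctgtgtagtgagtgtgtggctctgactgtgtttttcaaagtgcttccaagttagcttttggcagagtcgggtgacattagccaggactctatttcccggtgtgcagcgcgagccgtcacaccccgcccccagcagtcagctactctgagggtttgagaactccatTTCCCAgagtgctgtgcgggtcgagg
Dvl1 promoter: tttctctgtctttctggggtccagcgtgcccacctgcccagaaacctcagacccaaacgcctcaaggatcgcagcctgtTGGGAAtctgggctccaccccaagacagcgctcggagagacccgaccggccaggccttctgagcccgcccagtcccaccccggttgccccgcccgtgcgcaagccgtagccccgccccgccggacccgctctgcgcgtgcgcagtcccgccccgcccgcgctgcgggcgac
Of these genes Gsk3a fell between littermates and Dvl1 did not pass, while Ctnnb1 and Gsk3b, without a match, fell.

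Beyond the core, a wider list of 131 pathway genes by role had 75 that were tested. Between littermates 12 of them fell and 2 rose, beside 11.3% and 5.85% of all genes. The median of the 75 log2 fold changes was -0.84. When all 6 embryos were compared, limma called none of the 75, with 14 lower and 2 higher where the unadjusted p was under 0.05 (11.4% and 5.03% of all genes), while DESeq2 called Fbxw11 and Ep300 lower and Rbx1 higher. With the length trend removed, 9 fell and 2 rose between littermates, beside 6.79% and 3.02% of all genes. The littermate count of 14 dropped to 6 without the heterozygote, to 5 without wildtype embryo 3 and to 7 without wildtype embryo 4. Over all genes the 2074 calls dropped to 590, 481 and 665 in the same order.

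The adhesion partners of β-catenin had the lowest median log2 fold change of any role between littermates, -2.38, where all genes had -0.16. Of these 6 genes 4 fell and none rose, beside 11.3% and 5.85% of all genes. Cdh1, which encodes E-cadherin, was at 72.6 and 72.0 in the Rbpj-/- littermates and 319 in the mutant of litter 810, against 339, 431 and 444 in the controls. All 3 mutants were below all controls, the littermates by a wide margin (log2 fold change -2.46, SE 0.22, limma adjusted p = 0.000731). These are RNA values. The paper stained E-cadherin protein in combinations of Rbpj and Tead4 mutant alleles at E2.5 and reported no change in its intensity or distribution. Jup, which encodes plakoglobin, a close relative of β-catenin, had 10.9, 4.92 and 108 in the mutants and 73.2, 106 and 63.3 in the controls. It fell between littermates (-3.25, SE 0.43, adjusted p = 0.00244), and the mutant of litter 810 lay above all controls. Ctnnd1, for p120-catenin, which stabilises cadherin at the membrane, was at 29.4, 34.4 and 158 in the mutants against 161, 139 and 188 in controls. It fell between littermates (log2 fold change -2.31, limma adjusted p = 0.00192), and the mutant of litter 810 was inside the control range. Vcl, for the actin linker vinculin, had 0, 5.65 and 5.27 against 42.3, 14.2 and 28.8 (-3.38, adjusted p = 0.0309). Ctnna1, for αE-catenin, which was named after its values were seen, did not pass (-0.93, adjusted p = 0.0717). With the length trend removed Cdh1, Ctnnd1 and Jup passed and Vcl, still at -2.82, did not (adjusted p = 0.0774). In that fit 6.79% of all genes fell and 3.02% rose.

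Among 23 cytoplasmic genes, 3 fell and 2 rose between littermates, shares near the 11.3% and 5.85% of all genes. Rbx1 encodes the RING subunit of the ubiquitin ligase that recognises phosphorylated β-catenin. It was at 471, 344 and 219 in the mutants and 161, 168 and 156 in the controls. All mutants were above all controls (log2 fold change between littermates 1.31, SE 0.23, limma adjusted p = 0.00659). Skp1a, the adaptor, which was named after its values were seen, was at 387, 309 and 235 against 202, 217 and 164, and rose by 0.84 (SE 0.23, adjusted p = 0.0353). With the length trend removed Rbx1 passed (adjusted p = 0.0126), and Skp1a did not (0.408). Fbxw11, one of the F-box proteins that bind the substrate, moved the other way, from 79.2, 92.2 and 131 in the controls to 37.7, 26.8 and 41.2 in the mutants (-1.60, SE 0.34, adjusted p = 0.0153). Btrc, the other F-box protein, and Cul1, the scaffold, both named after their values were seen, did not pass (adjusted p = 0.690 and 0.249). Csnk1g3, a kinase that acts on LRP6, and Dvl2, a second Dishevelled, fell by 1.26 and 1.78 on the log2 scale (adjusted p = 0.0162 and 0.0309), but neither call held once the length trend was removed.

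Of 16 nuclear genes 2 fell, a share near the 11.3% of all genes. Tle4, a Groucho co-repressor that binds TCF/LEF factors, had 135 and 149 in the Rbpj-/- littermates and 440 in the mutant of litter 810, against 497, 479 and 449 in the controls (log2 fold change between littermates -1.74, SE 0.20, limma adjusted p = 0.00178). The groups did not overlap, although the mutant of litter 810 came close to the lowest control. Ep300, a histone acetyltransferase and co-activator, was low in all 3 mutants, at 54.8, 29.5 and 44.0 against 129, 164 and 142 (-1.82, SE 0.33, adjusted p = 0.00814). DESeq2 called Ep300 over all 6 embryos as well (adjusted p = 0.000901).

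Of 12 genes listed as targets of the pathway in other tissues, 3 fell and none rose, beside 11.3% and 5.85% of all genes. Cdx2, the trophectoderm transcription factor, was at 13.4 and 21.1 in the Rbpj-/- littermates and 83.7 in the mutant of litter 810, against 64.0, 90.3 and 53.7 in the controls (log2 fold change between littermates -1.94, SE 0.38, limma adjusted p = 0.0112). Jun, an AP-1 subunit, was at 9.80, 1.48 and 95.5 against 32.6, 42.3 and 54.9 (-3.07, SE 0.63, adjusted p = 0.0133). For both genes the mutant of litter 810 was within or above the control range. The third, Znrf3, which encodes a ubiquitin ligase that removes Frizzled from the membrane and is also the only one of 10 receptor genes to fall, had a log2 fold change of -1.88 (adjusted p = 0.0476). Its call was lost with the length trend removed (-1.26, adjusted p = 0.171), edgeR called no receptor gene, and the mutant of litter 810, at 35.3, lay above all controls (13.6 to 20.6). Axin2, Sp5 and Ccnd1, commonly used readouts of the pathway, were not analysed here.

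**Figure D4:**
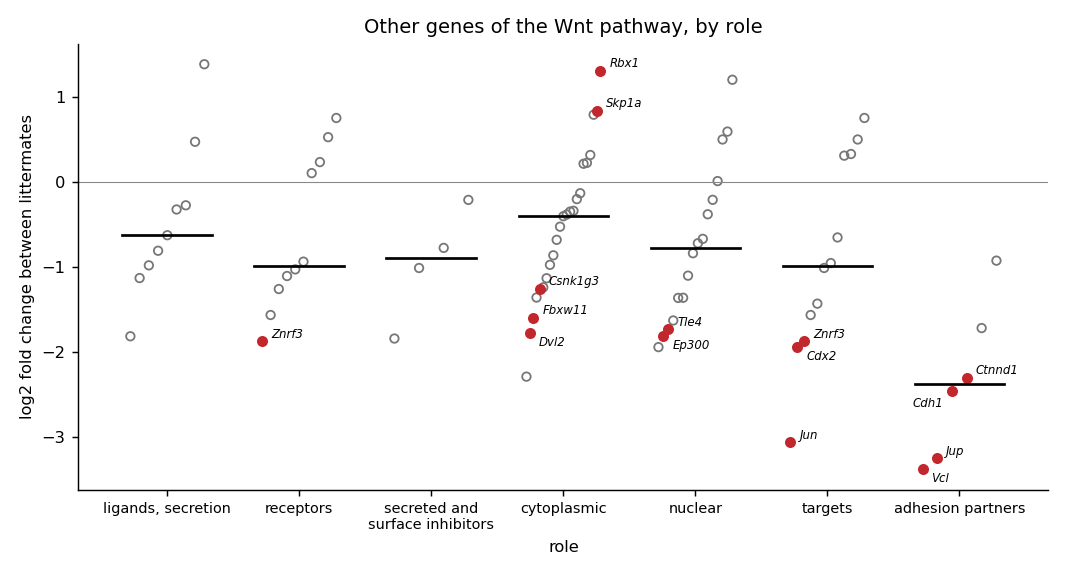
Log2 fold change between littermates of litter 808 (Rbpj-/- against control) for the 75 further Wnt pathway genes tested, by role, 1 point per gene and role, with the median of each role as a bar and genes that passed the limma test at adjusted p under 0.05 filled and named. Lef1, Lgr5, Notum, Rnf43 and Znrf3 have 2 roles each and are drawn under both, and the adhesion partners have the lowest median, -2.38.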

How the data were processed

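RNA of single E2.5 morulae was amplified from its poly(A) tails (SMART-Seq Ultra Low Input, no strand kept) and sequenced as single reads. Per the paper's methods, the authors quantified reads with RSEM on the GRCm38 transcriptome (Ensembl) and normalised them in edgeR with TMM. The submitters' processing notes name CASAVA 1.8.2, cutadapt 1.3 and RSEM 1.2.3, a release other than that in the methods. The deposited signal values are these normalised counts (TMM-scaled CPM) in 1 table of 12125 genes, whose filter was not stated.

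All values (100%, within 0.01 of a read) were whole multiples of a step per embryo, which gave back the reads. A value of 3 reads was 0.201 to 1.09, a limit that covers counting error only. Because the table holds normalised values, log2(value + 1) was tested with limma 3.58.1 in R 4.3.3 (variance trend, two-sided, Benjamini-Hochberg over the 12099 genes above 1 in 3 or more embryos, threshold 0.05), first with genotype alone and then with litter, which gives the littermate contrast. Fold changes on this scale understate those of low genes. In the littermate fit the single embryo of litter 810 adds no information on genotype, and with a mutant left out the lone remaining mutant is assumed to vary like the other embryos.

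The members and the counts of members, wider list and all genes called were recomputed with pseudocounts 0.1 and 5, with the filter dropped or set at a mean of 10, with array weights, with quantile normalisation or median of ratios scaling, with edgeR 4.0.16 and DESeq2 1.42.0 on the recovered reads, on thinned reads (10 draws), with a loess trend on transcript length removed (span 0.5), and without each embryo. The counts by role were recomputed only with edgeR, DESeq2 and the length trend removed, and the values by embryo only under the scalings and the length trend. The removal of the mean difference with that trend was chosen after seeing the data. Members, lists and tests were chosen with earlier results of these data known. The genes named by rule were all 10 members, Rbpj, Tle4, Cdx2 and, for each role, up to 4 genes. These had the smallest p between littermates among those with a mean value of at least 1. Ctnna1, Skp1a, Btrc and Cul1 were named in addition, after their values were seen. Positions and lengths came from GENCODE M21 (GRCm38), and promoters from RefSeq (GRCm38.p6). GENCODE held an annotated transcript for 12019 of the 12125 genes. A search for near-identical copies (at least 98% identity over 60 bases) found, for the 10 members, only the overlapping genes Ulk4 (Ctnnb1), 9130221H12Rik (Gsk3a) and AU022754 (Wnt7b). Steps were tested on simulated data.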

Additional observations from a re-analysis of the deposited data

How the results depend on the processing

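Embryo numbers do not match embryos across the groups, so no paired analysis was possible, and litter entered the littermate fit as a covariate instead. The median of all genes moved by 0.18 over all 6 embryos and 0.26 between littermates under quantile normalisation, and by 0.16 and 0.24 with the length trend and mean difference removed. Over all 6 embryos, where limma called 0, the members called were 2 by DESeq2, 4 with array weights and 0 to 7 with an embryo left out (7 without the mutant of litter 810). The wider list gave 3, 13 and 0 to 13, and all genes 359, 1564 and 0 to 2078 in the same order. Between littermates the count of 6 members became 3 under quantile normalisation, 3 with the length trend removed, 2 with the mean difference removed as well, and 0 to 7 with an embryo left out (1 without Rbpj-/- embryo 6, 0 without the heterozygote or wildtype embryo 3, 2 without wildtype embryo 4). The 14 genes of the wider list became 8 with trend and mean difference removed and 5 to 17 with an embryo left out. All 2074 genes became 1177 with the trend removed (815 lower and 362 higher), 1122 with trend and mean difference removed (472 lower and 650 higher, against 1366 and 708) and 481 to 2381 with an embryo left out (1062 without Rbpj-/- embryo 6, 590 without the heterozygote, 665 without wildtype embryo 4). Lrp5 and Csnk1a1, which were never called, changed sign: Lrp5 to -0.14 over all 6 embryos and -0.10 between littermates without the heterozygote, and Csnk1a1 over all 6 embryos to -0.040 with array weights, -0.10 without the mutant of litter 810, -0.092 without the heterozygote and -0.023 without wildtype embryo 4. Between littermates Csnk1a1 went to 0.26 with the length trend removed, 0.54 with the mean difference removed as well, and 0.040 without wildtype embryo 3. The cause was not tested. The other 8 members kept their direction in every alternative run. The 4 members below all controls were 4 under median of ratios scaling and with the length trend removed, and 3 under quantile normalisation. Depth limits Wnt7b most, with 7 and 14 reads in the Rbpj-/- littermates.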

Other observations

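In the wider list, which leaves out Wnt7b, no tested gene for ligands, their secretion or their inhibitors passed between littermates. Of all genes tested 11.3% fell and 5.85% rose. Of 9 ligand and secretion genes tested, 0 passed and 1 was lower at an unadjusted limma p under 0.05, beside 20.1% of all genes. That gene was Porcn, which encodes the acyltransferase that lipidates Wnt proteins, at 36.7, 33.9 and 71.2 in the Rbpj-/- embryos and 59.9, 116 and 50.5 in the controls (log2 fold change -0.98, limma adjusted p = 0.120). Wls, the carrier of Wnt proteins to the surface, was at 21.4 in wildtype embryo 4 and 7.34 in the mutant of litter 810, and at 0 to 1.54 in the other embryos. Wnt4 was at 6.53, 3.69 and 3.86 in the mutants and at 4.76, 0.270 and 0.603 in the controls, and Wnt3a was listed at 0 in both Rbpj-/- littermates and in wildtype embryo 4. Neither passed (adjusted p = 0.300 for Wnt4 and 0.363 for Wnt3a).

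Sfrp1, a secreted protein that binds Wnt ligands, was the most abundant of the 4 inhibitors tested, at 65.0, 51.1 and 131 in the mutants and 67.2, 99.4 and 147 in the controls (adjusted p = 0.163). Kremen1, which removes LRP6 from the surface together with DKK1, was at 3.99, 1.72 and 21.8 against 6.92, 13.8 and 18.8 (adjusted p = 0.101). Kremen2 and Notum had adjusted p-values of 0.895 and 0.485. Among receptors, Rnf43, a ubiquitin ligase related to Znrf3, was listed at 0 in all 3 mutants and at 1.23, 3.84 and 1.41 in the controls, and did not pass (adjusted p = 0.163). Fzd9 and Ptk7 did not pass either (0.368 and 0.312). In the nucleus Pygo2 and Chd8, a co-activator and a chromatin remodeller that acts on β-catenin targets, had log2 fold changes of -1.37 and -1.63 (adjusted p = 0.0531 and 0.0627), and Myc, a target, -1.43 (0.0602).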
